A study of Homo sapiens with 10 samples.

Results

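Cholesterol synthesis and its control by SREBP2 were followed through 30 genes in neurospheres exposed to short-chain phthalates. The genes were chosen by symbol from the 46427 genes of the count table, and they comprise 8 genes of the mevalonate arm, 3 of the squalene steps, 9 of the later sterol steps, 6 of the SREBP2 machinery and 4 of sterol transport. All 30 were found, none fell below 610 counts in a library, and all 30 passed the filter on low counts that left 19465 genes for testing.

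ReNcell VM cells, neural progenitors of human origin kept as an immortalised line, were grown as neurospheres and left to differentiate for 6 days in the presence of a test substance or vehicle. The groups were Mix, DPP, DProP and DEP, each labelled 100 µM, and vehicle (0.1% DMSO), with 2 libraries per group and 6 neurospheres pooled per library. DEP is diethyl phthalate, and DProP usually stands for di-n-propyl phthalate, in which propyl chains take the place of the ethyl chains. The labels do not spell out DPP, do not give what the Mix was made of, and do not say whether its dose is a total. The question behind the series is whether such phthalates, alone and combined, disturb neural development. All groups come from 1 cell line, and no label says whether the 2 libraries of each group were cultured apart. The p-values therefore rest on the spread of libraries within groups that may be technical.

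Cholesterol is built from acetyl-CoA through mevalonate and isoprenoid diphosphates to squalene, which is closed into lanosterol and trimmed to cholesterol. The genes of these enzymes are switched on together by SREBP2, a transcription factor held in the endoplasmic reticulum by its escort SCAP and by INSIG proteins while sterols are plentiful. When sterols run low, SCAP carries SREBP2 to the Golgi, where the site-1 and site-2 proteases release its active part; in the developing brain, which makes its own cholesterol, neurons, glia and progenitors all use the pathway.

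SREBP2 binds sterol regulatory elements, usually beside boxes for the factor NF-Y, so the stretches of promoter that hold such letters are shown for the gene of the factor itself and for 6 members that were higher in DProP than in DEP. They lie within the 250 bases before the RefSeq start (GRCh38.p14) and run 5′ to 3′ on the gene's strand. Capitals mark the NF-Y box CCAAT, its reverse complement ATTGG and, in SREBF2, the sterol regulatory element core TCACNCCAC. The stretches are SREBF2 at chr22:41832952-41833027 (plus strand), INSIG1 at chr7:155297688-155297736 (plus strand), HMGCS1 at chr5:43313484-43313587 (minus strand), MVD at chr16:88663148-88663270 (minus strand), LSS at chr21:46228896-46228944 (minus strand), DHCR7 at chr11:71448413-71448507 (minus strand) and STARD4 at chr5:111512637-111512716 (minus strand).
SREBF2: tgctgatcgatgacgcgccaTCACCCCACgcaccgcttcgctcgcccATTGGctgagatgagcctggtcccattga
INSIG1: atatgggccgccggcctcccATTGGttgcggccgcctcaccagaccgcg
HMGCS1: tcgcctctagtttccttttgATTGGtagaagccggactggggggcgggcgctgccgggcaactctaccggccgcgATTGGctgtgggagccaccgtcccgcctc
MVD: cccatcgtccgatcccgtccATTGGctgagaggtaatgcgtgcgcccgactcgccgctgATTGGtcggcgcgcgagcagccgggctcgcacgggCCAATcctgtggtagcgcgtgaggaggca
LSS: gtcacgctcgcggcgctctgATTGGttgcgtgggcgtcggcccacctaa
DHCR7: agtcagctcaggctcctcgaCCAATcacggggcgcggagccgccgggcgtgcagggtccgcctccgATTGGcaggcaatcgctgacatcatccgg
STARD4: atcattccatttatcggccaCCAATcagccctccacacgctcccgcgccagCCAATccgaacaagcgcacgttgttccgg

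A window was found for 27 members, and none was found for ACAT2, FDFT1 and SQLE. Both strands were searched. The core TCACNCCAC was in 1 of the 27 members (3.70%), SREBF2, and in 1.09% of the 27305 genes with a window; its form TCACCCCAC, a part of the same search, was in that member and in 0.451% of genes. The NF-Y box was in 19 of the 27 members (70.4%) and in 37% of all genes, and 12 members held at least 2 boxes, as did 11.5% of all genes. The Sp1 box GGGCGG was in 23 of the 27 members (85.2%) and in 46.2% of all genes. A match is a run of letters and not a measured binding site.

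Counts per library ran from 57222381 to 72973100. Levels are given as CPM (a gene's counts relative to its library's total, on the usual CPM scale, with TMM factors), and changes as log2 fold changes with standard error from edgeR's quasi-likelihood test, with Benjamini-Hochberg adjusted p over all 19465 genes and a threshold of 0.05. A gene that passed is called. The vehicle libraries stood apart: their TMM factors were 0.915 and 0.917, against 1.00 to 1.04 in the 8 treated libraries, and they had counts for 21500 and 21603 genes, against 22905 to 23646 in treated libraries. MALAT1, a nuclear RNA, took 0.342% to 0.394% of counts in treated libraries and 0.946% and 1.25% in vehicle libraries. With library size alone in place of TMM, the median of all genes moved to 0.16 (Mix), 0.18 (DPP), 0.19 (DProP) and 0.16 (DEP) against vehicle on the log2 scale, so changes against vehicle are relative to such a shift. The comparisons between treatments do not set levels against vehicle, but all 5 groups shared the filter and the estimate of spread; without both vehicle libraries 8 pathway genes in place of 7 were called in Mix against DEP, 9 in place of 10 in DPP against DEP and 3 in place of 2 in Mix against DPP. Since the neurospheres were sequenced whole, fewer cells of a type and less RNA per cell cannot be told apart.

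Against vehicle, more cholesterol synthesis genes passed the test as higher than as lower in Mix, DPP and DProP neurospheres, and more as lower than as higher in DEP neurospheres. INSIG1, the sterol-sensing brake on SREBP2, and FDPS, farnesyl diphosphate synthase, rose in all 4 treatments, whereas PMVK, phosphomevalonate kinase, fell in all 4. ACAT2, IDI1, HSD17B7, DHCR7, STARD4 and NPC1 rose in Mix, DPP and DProP and did not pass the test in DEP. In Mix the calls of DHCR7 and STARD4 were kept in all 14 alternatives other than the 2-fold minimum, whereas HSD17B7 lost its call in 12 of them, ACAT2 in 8, NPC1 in 6 and IDI1 in 5. LBR, a sterol reductase that also anchors chromatin at the nuclear envelope, fell in Mix, DPP and DEP.

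In Mix against vehicle 10 of the 30 genes were higher and 2 lower, with 9.71% of all genes tested called higher and 10.7% lower; the median log2 fold change was 0.11 for the 30 genes and 0.02 for all genes. In DPP against vehicle 12 were higher and 4 lower, with 16.7% of all genes higher and 19.5% lower, and the medians were 0.17 and 0.02. In DProP against vehicle 15 were higher and 2 lower, with 14.7% of all genes higher and 17.5% lower, and the medians were 0.32 and 0.02. The share of pathway genes called higher was thus above that of all genes in these 3 comparisons and the share called lower was below it. In DEP against vehicle 3 were higher (FDPS, MBTPS1 and INSIG1) and 8 lower (HMGCS1, MVK, PMVK, MVD, SQLE, CYP51A1, LBR and SREBF2), with 10.1% of all genes higher and 13.5% lower, and the medians were -0.06 and 0.01. These 4 comparisons share the vehicle libraries, so they are not independent of one another.

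The split of calls against vehicle moved with the scaling. With library size alone, 9 of the 30 genes were higher and 2 lower in DEP, and the median of the 30 genes turned to 0.10; after a correction for GC content and length, 5 were higher and 4 lower. With library size alone, 15 were higher and 2 lower in Mix, 18 and 1 in DPP and 23 and 1 in DProP. Over all 19465 genes this scaling called 4605 higher and 1020 lower in Mix and 5820 and 2200 in DPP. It called 5850 and 1699 in DProP and 4794 and 1259 in DEP. In DEP the median of all genes was then 0.16, above that of the 30 genes. The GC and length correction called 2049 genes higher and 2101 lower in DEP. In DEP the decreases of HMGCS1, MVK, PMVK, MVD, CYP51A1 and SREBF2 did not pass the test with library size alone. With TMM, leaving out any 1 library of the comparison lowered the calls in DEP and in Mix, both in the pathway and over all genes. The median of the 30 genes then lay between -0.08 and -0.03 in DEP and between 0.11 and 0.13 in Mix.

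**Figure D1:**
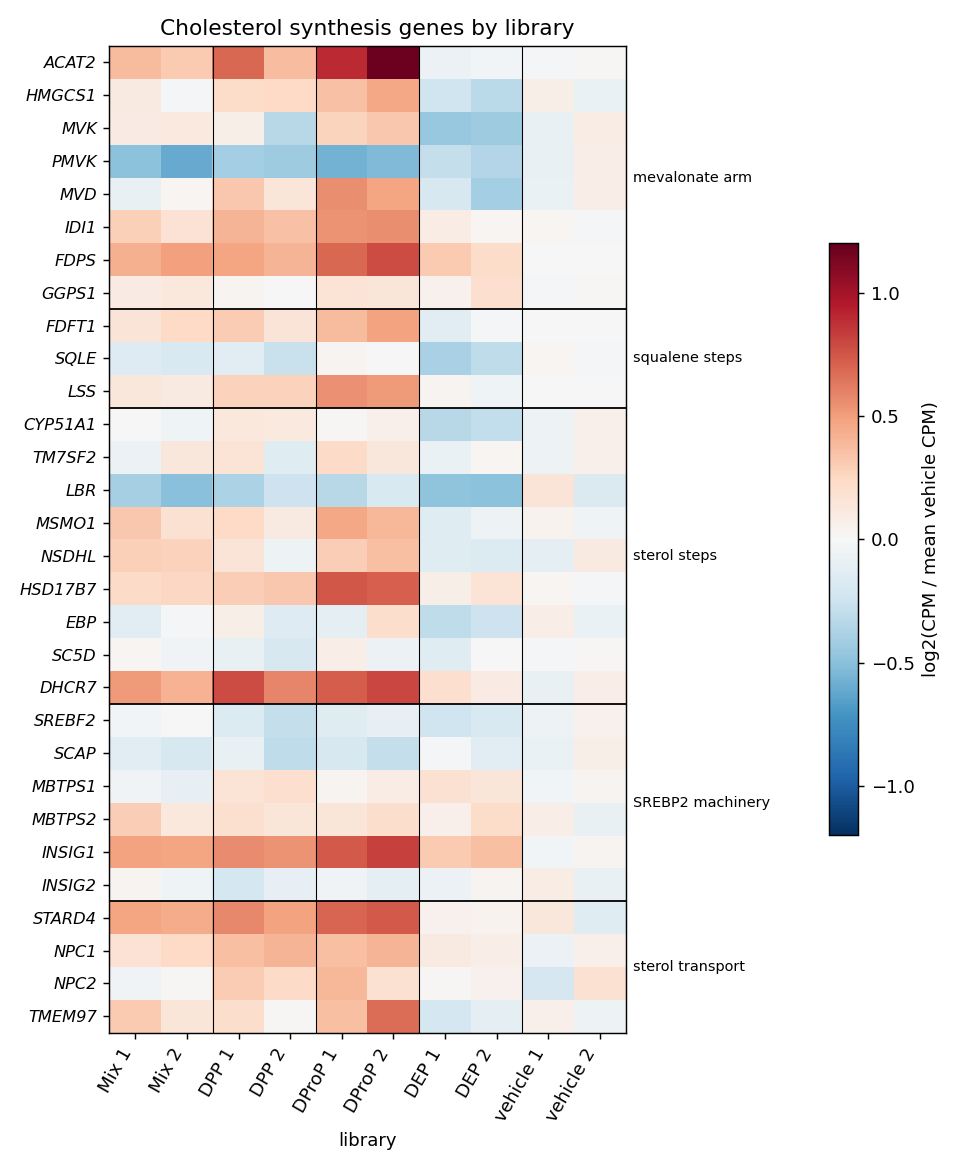
Heat map of the 30 genes (rows, by role) in the 10 libraries (columns, from Mix to vehicle). Colour gives log2 of the CPM over the mean CPM of the vehicle libraries; the median over the 30 genes was 0.33 and 0.34 in the DProP libraries and -0.08 and -0.03 in the DEP libraries.

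Across libraries, the median level of the 30 genes relative to the vehicle mean was 0.11 and 0.12 in Mix, 0.20 and 0.13 in DPP, 0.33 and 0.34 in DProP, -0.08 and -0.03 in DEP and -0.01 and 0.01 in vehicle on the log2 scale. Their summed level was 3278 and 3189 CPM in Mix, 3421 and 3252 CPM in DPP, 3637 and 3720 CPM in DProP, 2903 and 2920 CPM in DEP and 3129 and 3122 CPM in vehicle. Both measures put DProP highest and DEP lowest, with no overlap between the libraries of these groups. By group mean, 21 members were highest in DProP, 3 in DPP, 1 in Mix and 5 in vehicle (PMVK, LBR, SREBF2, SCAP and INSIG2). The lowest mean was in DEP for 14 members and in vehicle for 9. Such ranks were not counted over all genes.

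Among the treatments, the most pathway genes were called between DProP and DEP, compounds that differ in the length of their alkyl chains and were given at the same labelled dose. Of the 30 genes, 16 were higher in DProP and 0 lower, whereas over all genes only 0.39% were called higher and 0.134% lower. The 16 genes were 53.3% of the pathway and 21.1% of the 76 genes higher in DProP than in DEP in the whole table. Among the 20 genes with the smallest p in this comparison 9 belonged to the pathway, namely ACAT2, LSS, HMGCS1, MVD, HSD17B7, IDI1, STARD4, INSIG1 and DHCR7. The median log2 fold change was 0.40 for the 30 genes and 0.00 for all genes. For the decreases, edgeR's quasi-likelihood test called 0, 1 gene (PMVK) had an unadjusted p under 0.05, and DESeq2 and limma-voom called 0 each.

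With all libraries 102 genes were called in DProP against DEP, 16 of them in the pathway. Without DEP replicate 1, 5 pathway genes were called of 20 genes in all; without DEP replicate 2, 2 of 9; without DProP replicate 2, 8 of 32; and without DProP replicate 1, 15 of 267. ACAT2 and LSS were called in each of these fits, and the median log2 fold change of the 30 genes lay between 0.38 and 0.49 in them.

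**Figure D2:**
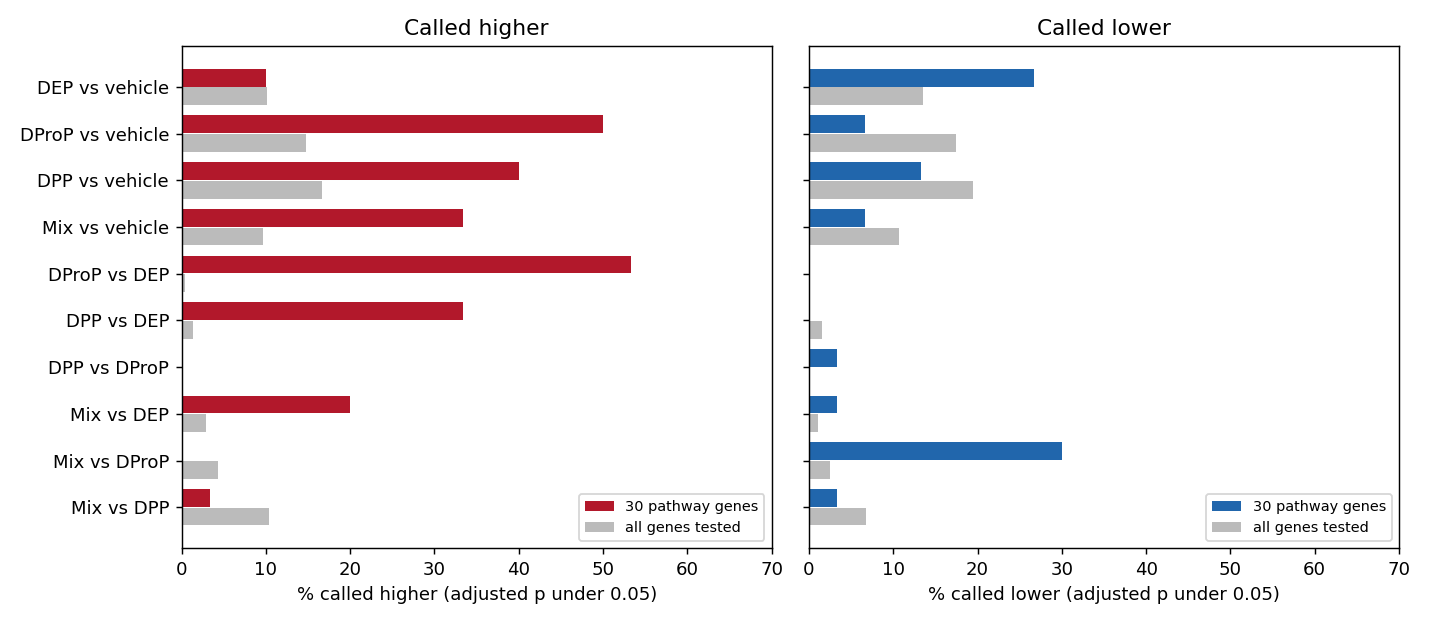
Percent of the 30 pathway genes and of all 19465 genes tested that were called higher (left) or lower (right) in each of the 10 comparisons. In DProP against DEP 53.3% of the pathway genes and 0.39% of all genes were called higher, and in Mix against DProP 30% and 2.53% were called lower.

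In the mevalonate arm 6 of 8 genes were higher in DProP than in DEP, with a median log2 fold change of 0.59. ACAT2, the cytosolic thiolase that makes acetoacetyl-CoA at the entry of the arm, had 44.9 and 42.7 CPM in Mix, 55.4 and 44.6 CPM in DPP, 64.2 and 77.8 CPM in DProP, 32.8 and 33.5 CPM in DEP and 34.0 and 34.8 CPM in vehicle libraries. Both DProP libraries lay above all others, and the DEP and vehicle libraries lay together at the bottom. ACAT2 was 2.14-fold higher in DProP than in DEP (log2 1.10 ± 0.11, adjusted p = 0.00109) and 2.06-fold higher in DProP than in vehicle (1.05 ± 0.11, adjusted p = 4.91e-05). It overlaps TCP1, a chaperonin subunit gene on the opposite strand, and whether counting used strand is not stated in the sources used here; TCP1 itself had a log2 fold change of -0.09 ± 0.07 in DProP against DEP (adjusted p = 0.694).

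HMGCS1, the HMG-CoA synthase that follows, had 428 and 390.4 CPM in Mix, 461 and 467 CPM in DPP, 507 and 547 CPM in DProP, 336 and 316 CPM in DEP and 417 and 375 CPM in vehicle libraries. The DEP libraries were below all others and the DProP libraries above all others, with Mix and vehicle overlapping. The log2 fold change was 0.69 ± 0.07 in DProP against DEP (adjusted p = 0.00117) and 0.51 ± 0.07 in DPP against DEP (adjusted p = 0.00274). HMGCS1 was 0.41 ± 0.07 higher in DProP than in vehicle (adjusted p = 0.00116) and -0.28 ± 0.07 in DEP against vehicle (adjusted p = 0.0142).

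MVK, mevalonate kinase, had 15.8 and 16.0 CPM in Mix, 15.5 and 11.7 CPM in DPP, 17.8 and 18.5 CPM in DProP, 10.8 and 10.976 CPM in DEP and 13.9 and 15.7 CPM in vehicle libraries. It was lowest in both DEP libraries and rose by 0.74 ± 0.12 in DProP against DEP (adjusted p = 0.0233). MVD, mevalonate diphosphate decarboxylase, had 42.4 and 45.9 CPM in Mix, 56.3 and 49.9 CPM in DPP, 66.2 and 62.7 CPM in DProP, 39.4 and 33.9 CPM in DEP and 42.6 and 47.5 CPM in vehicle libraries. MVD was 1.76-fold higher in DProP than in DEP (log2 0.81 ± 0.09, adjusted p = 0.00217). The DProP libraries exceeded all others, and Mix and vehicle overlapped.

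PMVK, the kinase between these enzymes, went the other way. It had 31.9 and 29.5 CPM in Mix, 33.9 and 33.3 CPM in DPP, 30.3 and 31.1 CPM in DProP, 36.9 and 35.0 CPM in DEP and 42.1 and 47.5 CPM in vehicle libraries. All 8 treated libraries were below both vehicle libraries, and the log2 fold change against vehicle was -0.54 ± 0.08 in Mix (adjusted p = 6.59e-04), -0.42 ± 0.08 in DPP (adjusted p = 0.00148), -0.55 ± 0.08 in DProP (adjusted p = 3.58e-04) and -0.32 ± 0.08 in DEP (adjusted p = 0.0117). PMVK was called in no comparison between treatments. Its promoter window held no CCAAT.

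IDI1, which isomerises isopentenyl diphosphate, had 107 and 98.55 CPM in Mix, 116 and 112 CPM in DPP, 127 and 129 CPM in DProP, 93.1 and 88.9 CPM in DEP and 88.7 and 86.4 CPM in vehicle libraries. The 4 treatments thus stood in the order DProP, DPP, Mix and DEP without overlap of their libraries. FDPS, which makes farnesyl diphosphate, had 27.9 and 29.2 CPM in Mix, 28.7 and 27.6 CPM in DPP, 33.4 and 35.6 CPM in DProP, 25.9 and 24.2 CPM in DEP and 20.7 and 20.8 CPM in vehicle libraries. The vehicle libraries were below all treated ones, and the log2 fold change of FDPS against vehicle was 0.46 ± 0.08 in Mix, 0.44 ± 0.08 in DPP, 0.74 ± 0.08 in DProP and 0.27 ± 0.08 in DEP (adjusted p between 3.97e-05 and 0.0224). GGPS1, which diverts farnesyl diphosphate to geranylgeranyl diphosphate, lay between 63.2 and 73.4 CPM and was called in no comparison. Copies of FDPS and IDI1 listed as pseudogenes had at most 6 counts in any library.

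**Figure D3:**
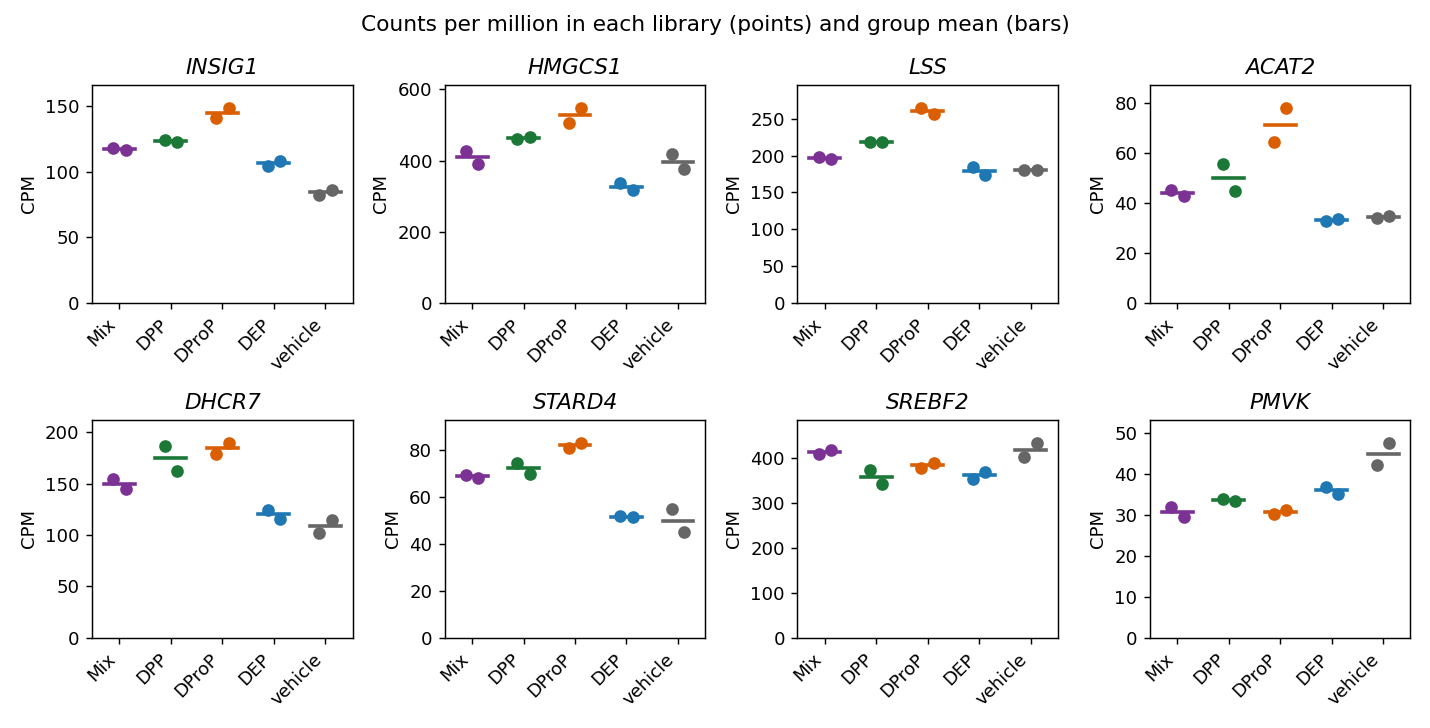
CPM (vertical axes, from 0) of 8 genes in the libraries of Mix, DPP, DProP, DEP and vehicle; points are libraries and bars group means. ACAT2, LSS, HMGCS1, INSIG1 and STARD4 were highest in both DProP libraries, whereas PMVK was highest in both vehicle libraries.

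At the squalene steps all 3 genes were higher in DProP than in DEP. LSS, which closes oxidosqualene into lanosterol, had 198 and 195 CPM in Mix, 218 and 218 CPM in DPP, 264 and 257 CPM in DProP, 185 and 174 CPM in DEP and 181 and 179.9 CPM in vehicle libraries. Its replicates were close, DEP and vehicle overlapped, and the other groups stood apart in the order DProP, DPP and Mix. LSS rose by 0.54 ± 0.05 in DProP against DEP (adjusted p = 0.00109), by 0.53 ± 0.05 in DProP against vehicle (adjusted p = 3.94e-05) and by 0.28 ± 0.05 in DPP against DEP (adjusted p = 0.0176).

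SQLE, squalene epoxidase, had 139.8 and 137 CPM in Mix, 142 and 129 CPM in DPP, 159 and 156 CPM in DProP, 119 and 126 CPM in DEP and 158 and 153 CPM in vehicle libraries. Here DProP and vehicle overlapped (log2 fold change 0.02 ± 0.06, 95% interval -0.11 to 0.15), while DEP was below both. SQLE was -0.35 ± 0.06 in DEP against vehicle (adjusted p = 0.00233), -0.20 ± 0.06 in DPP against vehicle (adjusted p = 0.0245; -0.04 and adjusted p = 0.617 with library size alone) and 0.36 ± 0.06 in DProP against DEP (adjusted p = 0.0246). FDFT1, squalene synthase, ranged from 117 to 179.9 CPM and rose by 0.51 ± 0.07 in DProP against DEP (adjusted p = 0.0092).

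Of the 9 genes of the later sterol steps, MSMO1, NSDHL, HSD17B7 and DHCR7 were higher in DProP than in DEP. DHCR7, the reductase of the last step, had 155 and 145 CPM in Mix, 186 and 163 CPM in DPP, 179 and 189.5 CPM in DProP, 124 and 116 CPM in DEP and 102 and 115 CPM in vehicle libraries. DPP and DProP overlapped at the top, and both were above Mix. DHCR7 rose by 0.47 ± 0.08 in Mix, 0.69 ± 0.08 in DPP and 0.76 ± 0.08 in DProP against vehicle (adjusted p between 5.31e-05 and 0.00244), and by 0.54 ± 0.08 in DPP against DEP (adjusted p = 0.00471).

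HSD17B7, a reductase of sterol ketones, had 21.3 and 21.6 CPM in Mix, 22.4 and 22.8 CPM in DPP, 30.6 and 30.035 CPM in DProP, 19.1 and 20.4 CPM in DEP and 18.5 and 17.9 CPM in vehicle libraries. Both DProP libraries lay above all others, and HSD17B7 was the single pathway gene called between DPP and DProP (-0.42 ± 0.08, adjusted p = 0.0497). Its level is uncertain, since the near-identical copy HSD17B7P2 had 934 to 2576 counts per library and how multi-mapping reads were counted is not stated in the sources used here. MSMO1, a sterol methyl oxidase, lay between 79.0 and 121 CPM and NSDHL, which acts after it, between 33.9 and 48.8 CPM; in DProP against DEP they were 0.53 ± 0.07 (adjusted p = 0.00743) and 0.49 ± 0.09 (adjusted p = 0.0331).

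The other 5 sterol-step genes were not called in DProP against DEP. CYP51A1, the lanosterol demethylase, lay between 26.0 and 35.7 CPM; it was -0.31 ± 0.07 in DEP against vehicle (adjusted p = 0.00851) and 0.44 ± 0.07 in DPP against DEP (adjusted p = 0.00686). LBR ranged from 159 to 251 CPM and fell by 0.45 ± 0.10 in Mix, 0.31 ± 0.10 in DPP and 0.49 ± 0.10 in DEP against vehicle (adjusted p between 0.00507 and 0.0269); in DPP this missed the threshold with library size alone (-0.16, adjusted p = 0.221). TM7SF2, a second sterol reductase, lay between 75.6 and 97.6 CPM, the isomerase gene EBP between 9.40 and 13.5 CPM and the desaturase gene SC5D between 186 and 224 CPM. These last genes were called in no comparison.

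In the SREBP2 machinery the feedback gene INSIG1 moved and the gene of the factor moved little. INSIG1 had 118 and 117 CPM in Mix, 124 and 123 CPM in DPP, 141 and 148 CPM in DProP, 105 and 108 CPM in DEP and 82.3 and 86.1 CPM in vehicle libraries. No groups overlapped, in the order DProP, DPP, Mix, DEP and vehicle. Against vehicle INSIG1 was 1.39-fold higher in Mix (adjusted p = 2.06e-04), 1.47-fold in DPP (adjusted p = 2.81e-05), 1.72-fold in DProP (adjusted p = 5.55e-06) and 1.26-fold in DEP (adjusted p = 0.00178). It was 0.44 ± 0.06 in DProP against DEP on the log2 scale (adjusted p = 0.00555).

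SREBF2, which encodes SREBP2, had 408 and 417 CPM in Mix, 373 and 342 CPM in DPP, 377 and 389 CPM in DProP, 353 and 368 CPM in DEP and 401 and 433 CPM in vehicle libraries. The DPP, DProP and DEP libraries were below both vehicle libraries, and Mix overlapped vehicle. In DProP the difference from vehicle did not pass the test. SREBF2 fell by 0.22 ± 0.06 in DPP (adjusted p = 0.0158) and by 0.21 ± 0.06 in DEP against vehicle (adjusted p = 0.0308), neither of which passed the test with library size alone (-0.06 and -0.05), and it was 0.21 ± 0.06 in Mix against DPP (adjusted p = 0.039). In DProP against DEP it was 0.09 ± 0.06, with a 95% interval of -0.05 to 0.22 (adjusted p = 0.619). These values are RNA levels and hold no measure of how much SREBP2 protein was released.

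SCAP, the escort, lay between 152 and 196 CPM and was -0.24 ± 0.08 in DProP against vehicle (adjusted p = 0.040), a difference that turned to 0.05 after the correction for GC content and length. MBTPS1, the site-1 protease, lay between 153 and 189 CPM; it was 0.17 ± 0.06 in DEP and 0.18 ± 0.06 in DPP against vehicle (adjusted p = 0.049 and 0.0224) and -0.25 ± 0.06 in Mix against DPP (adjusted p = 0.00938). MBTPS2, the site-2 protease, lay between 60.8 and 79.2 CPM and INSIG2, the second INSIG gene, between 34.6 and 42.7 CPM, and neither was called in any comparison.

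Among the transport genes STARD4, which moves cholesterol between membranes, had 69.5 and 68.3 CPM in Mix, 74.8 and 69.85 CPM in DPP, 81.1 and 83.2 CPM in DProP, 51.8 and 51.6 CPM in DEP and 55.0 and 45.1 CPM in vehicle libraries. DEP lay between the vehicle libraries, and the other treatments lay above both. STARD4 rose by 0.46 ± 0.08 in Mix, 0.53 ± 0.08 in DPP and 0.71 ± 0.08 in DProP against vehicle (adjusted p between 9.73e-05 and 0.00293), and by 0.67 ± 0.08 in DProP against DEP (adjusted p = 0.00394).

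TMEM97, a sterol-regulated partner of NPC1, had 35.5 and 31.6 CPM in Mix, 33.1 and 28.96 CPM in DPP, 36.9 and 45.5 CPM in DProP, 24.8 and 26.3 CPM in DEP and 29.9 and 27.4 CPM in vehicle libraries. The DProP libraries were the highest but differed from each other, and TMEM97 was 0.69 ± 0.11 in DProP against DEP (adjusted p = 0.0192). NPC1, which exports cholesterol from lysosomes, lay between 54.0 and 75.2 CPM and rose by 0.21 ± 0.06 in Mix, 0.39 ± 0.06 in DPP and 0.39 ± 0.06 in DProP against vehicle (adjusted p between 7.01e-04 and 0.039). NPC2, its soluble partner, lay between 38.5 and 58.3 CPM and was called in no comparison.

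The presence of a CCAAT box was set beside these changes as a description. In DProP against DEP 13 of the 19 members with a box in the window were higher, and their median log2 fold change was 0.49; the 8 members with a window and no box (PMVK, CYP51A1, LBR, SCAP, MBTPS1, MBTPS2, INSIG2 and NPC1) had a median of -0.01 and 0 of them were called by edgeR, although CYP51A1, LBR and NPC1 had an unadjusted p under 0.05 and higher levels in DProP, and PMVK one with lower levels. In DPP against DEP 6 of the 19 and 2 of the 8 (CYP51A1 and NPC1) were higher. The members without a box include most of the SREBP2 machinery, so box and role cannot be told apart.

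**Figure D4:**
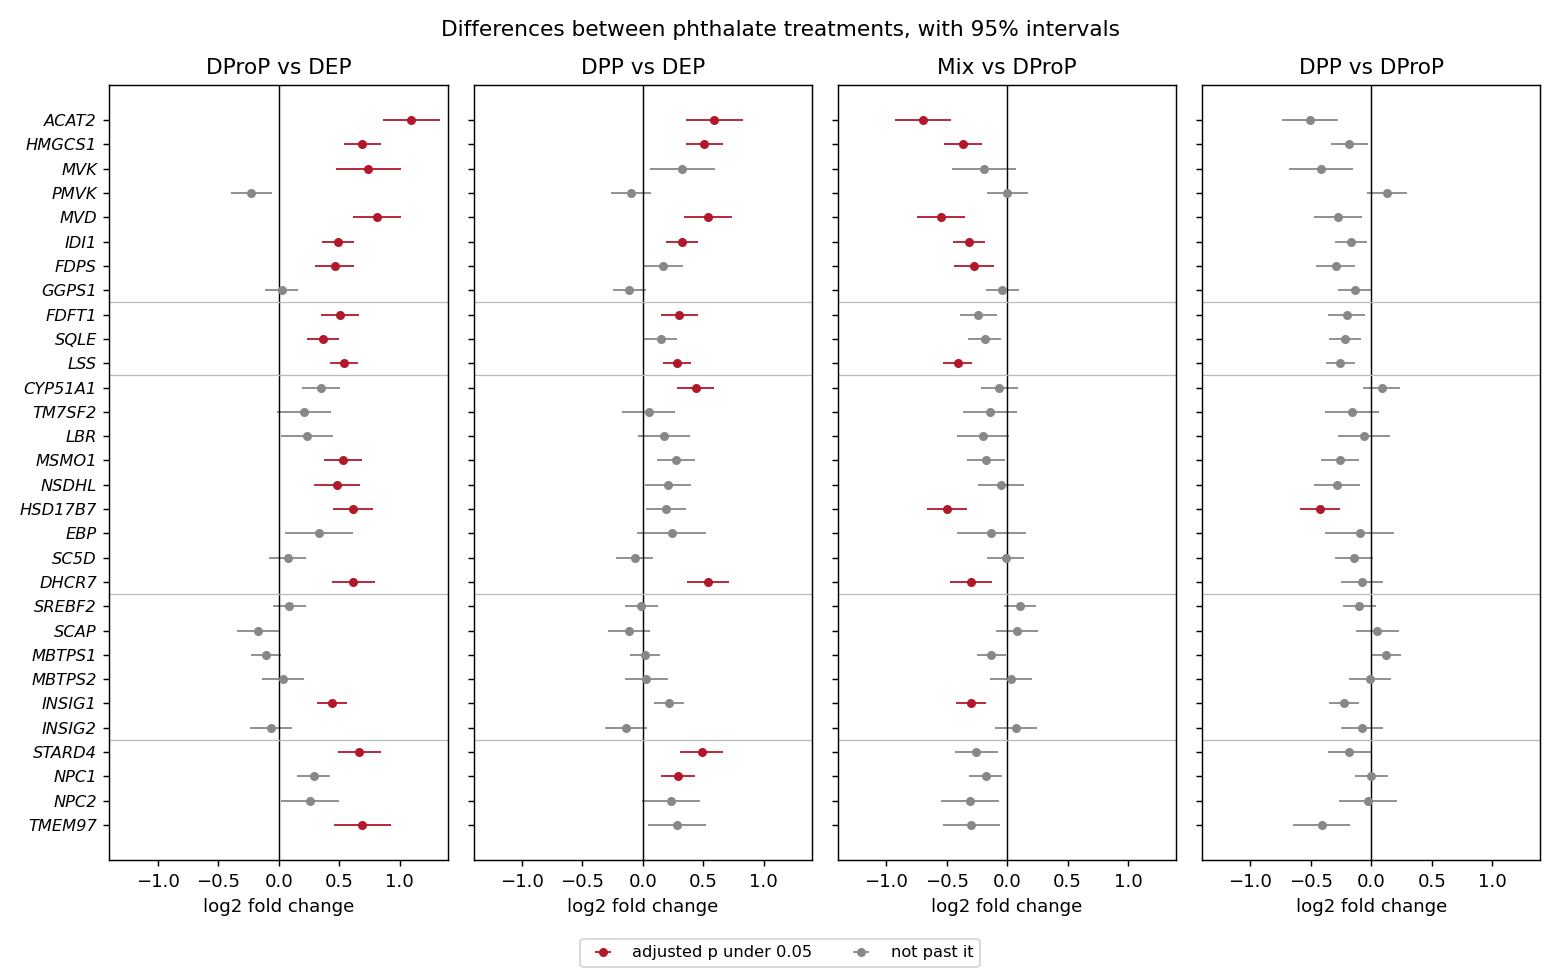
Log2 fold change (points) with 95% interval (bars) of the 30 genes in 4 comparisons between treatments, with red where the adjusted p was under 0.05. In DProP against DEP 16 genes lie to the right of 0 in red, whereas in DPP against DProP only HSD17B7 is red.

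The treatments were compared with one another in 6 pairs at the same labelled dose, and p-values were adjusted over all genes within each pair. In DPP against DEP 10 of the 30 genes were higher (ACAT2, HMGCS1, MVD, IDI1, FDFT1, LSS, CYP51A1, DHCR7, STARD4 and NPC1) and 0 lower, with 1.36% of all genes called higher and 1.58% lower. The median was 0.23 for the 30 genes and 0.00 for all genes. For the decreases, 0 genes had an unadjusted p under 0.05 and DESeq2 and limma-voom called 0. Leaving out any 1 library of these groups lowered the calls in the pathway. Calls over all genes fell too, except without DPP replicate 1, where they rose. The median of the 30 genes then lay between 0.19 and 0.27.

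In DPP against DProP 0 of the 30 genes were higher and 1 lower, with 0.144% of all genes called higher and 0.118% lower. The median was -0.16, and 15 genes had an unadjusted p under 0.05 and a lower level in DPP, with 1 gene the other way. DESeq2 called 8 of the 30 genes lower and 0 higher, with 214 of all genes lower and 185 higher. Limma-voom called 1 lower and 0 higher, with 11 and 36 over all genes. Adjustment over the 10 comparisons together, chosen after seeing the data, gave 9 calls, with 648 over all genes. EdgeR gave 0 with a replicate block and 0 in a fit of these groups alone, with 36 and 17 over all genes. Leaving out 1 library put the median of the 30 genes between -0.21 and -0.13. The 95% intervals reached a median of 0.17 to each side: ACAT2 was -0.51 (-0.74 to -0.28, adjusted p = 0.0763), INSIG1 -0.23 (-0.35 to -0.10, adjusted p = 0.133), DHCR7 -0.08 (-0.25 to 0.10, adjusted p = 0.76) and NPC1 0.00 (-0.14 to 0.14, adjusted p = 1). Values that missed the threshold here do not show that the compounds act alike.

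The Mix stood below DProP and above DEP for much of the pathway. In Mix against DProP 9 genes were lower (ACAT2, HMGCS1, MVD, IDI1, FDPS, LSS, HSD17B7, DHCR7 and INSIG1) and 0 higher, with 2.53% of all genes called lower and 4.36% higher, and the median was -0.19. ACAT2 was -0.70 ± 0.11 (adjusted p = 0.00342), LSS -0.41 ± 0.05 (adjusted p = 0.00149) and INSIG1 -0.30 ± 0.06 (adjusted p = 0.00934). For the increases 0 genes had an unadjusted p under 0.05, and DESeq2 and limma-voom called 0. Without Mix replicate 1, Mix replicate 2 or DProP replicate 2, 5, 4 and 4 genes were called.

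In Mix against DEP 6 genes were higher (HMGCS1, MVK, CYP51A1, MSMO1, NSDHL and STARD4) and MBTPS1 was lower, with 2.85% of all genes called higher and 1.02% lower, and the median was 0.18. Leaving out any 1 library of these groups lowered the calls, both in the pathway and over all genes. The median of the 30 genes then lay between 0.16 and 0.17. In Mix against DPP SREBF2 was higher and MBTPS1 lower, with 10.4% of all genes called higher and 6.82% lower, so the shares of the pathway lay below those of all genes. With library size alone MBTPS1 was the 1 call, and after the correction for GC content and length 2 genes were higher and 7 lower. Over all genes library size alone called 1851 higher and 1495 lower, and the correction 2132 and 2037. When 1 library of Mix or DPP was left out, fewer of all genes were called each time. The median of the 30 genes then lay between -0.10 and 0.01. The mean of the Mix lay between the lowest and the highest mean of the single compounds for 25 of the 30 genes, and 12 genes had means in the order DProP, DPP, Mix and DEP. How often these orders hold over all genes was not counted.

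Genes of cholesterol efflux under LXR, the nuclear receptor that answers to oxysterols, were set beside the pathway. Of 10 such genes 3 were lower in Mix, 4 in DPP, 5 in DProP and 1 in DEP against vehicle, and 0 were higher. With library size alone 2, 3, 3 and 1 were lower in the same order, and 1 was higher in DPP. After the correction for GC content and length 1, 3, 4 and 2 were lower and 1, 1, 1 and 0 higher. Over all genes that correction called 1777, 3368, 2748 and 2101 lower and 1521, 3506, 2881 and 2049 higher. Over all genes 10.7%, 19.5%, 17.5% and 13.5% were lower in these comparisons with TMM, so the DEP count was not above that share with TMM. With library size alone 1020, 2200, 1699 and 1259 of 19465 genes were lower in the same order. The DEP share there was below 1 in 10. ABCA1, the cholesterol exporter, had 677 and 629 CPM in Mix, 642 and 681 CPM in DPP, 589 and 543 CPM in DProP, 833 and 794 CPM in DEP and 986 and 871 CPM in vehicle libraries. The DProP libraries were the lowest and the vehicle libraries the highest, and ABCA1 fell by 0.71 ± 0.07 in DProP against vehicle (adjusted p = 4.14e-05) and by 0.52 ± 0.07 in DProP against DEP (adjusted p = 0.00927).

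APOE, the main lipid carrier of the brain, had 389.8 and 313 CPM in Mix, 266 and 186 CPM in DPP, 205.5 and 178 CPM in DProP, 361 and 352 CPM in DEP and 663 and 723 CPM in vehicle libraries. All treated libraries were below vehicle, and the log2 fold change was -0.98 ± 0.17 in Mix, -1.62 ± 0.18 in DPP, -1.85 ± 0.18 in DProP and -0.96 ± 0.17 in DEP (adjusted p between 2.80e-04 and 0.00772). In Mix its decrease missed the threshold after the correction for GC content and length (adjusted p = 0.0638). ABCG1, another exporter, was low: it had 6.17 and 6.39 CPM in Mix, 2.51 and 1.33 CPM in DPP, 1.97 and 2.66 CPM in DProP, 5.09 and 7.37 CPM in DEP and 9.62 and 10.6 CPM in vehicle libraries. ABCG1 had log2 fold changes of -2.39 ± 0.27 in DPP and -2.12 ± 0.27 in DProP against vehicle (adjusted p = 9.80e-05 and 2.82e-04). The summed level of the 10 genes was 1508 to 1610 CPM in Mix, 1449 to 1499 CPM in DPP, 1265 to 1338 CPM in DProP, 1668 to 1754 CPM in DEP and 2222 to 2231 CPM in vehicle.

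Fatty acid genes that answer to SREBP1, the relative of SREBP2, included genes that were higher and genes that were lower. Of 10 such genes 2 were higher and 3 lower in Mix, 5 and 3 in DPP, 4 and 3 in DProP and 1 and 3 in DEP against vehicle, where 9.71%, 16.7%, 14.7% and 10.1% of all genes were higher and 10.7%, 19.5%, 17.5% and 13.5% lower. The split moved with the scaling. With library size alone 5 were higher and 1 lower in Mix, 6 and 3 in DPP and DProP and 3 and 2 in DEP. After the correction for GC content and length it was 1 and 1 in Mix and DEP, 5 and 2 in DPP and 5 and 4 in DProP. Over all genes that correction called 1521 higher and 1777 lower in Mix and 3506 and 3368 in DPP. It called 2881 and 2748 in DProP and 2049 and 2101 in DEP. The counts over all genes with library size alone are given above. LPIN1, a phosphatidate phosphatase, rose by 0.41 ± 0.06 in Mix, 0.65 ± 0.06 in DPP, 0.70 ± 0.06 in DProP and 0.37 ± 0.06 in DEP (adjusted p between 1.06e-05 and 0.0012), and by 0.33 ± 0.06 in DProP against DEP (adjusted p = 0.028). SCD, the stearoyl-CoA desaturase, fell by 0.50 ± 0.08 in Mix, 0.59 ± 0.08 in DPP, 0.71 ± 0.08 in DProP and 0.40 ± 0.08 in DEP (adjusted p between 6.97e-05 and 0.00365). FADS2, another desaturase, fell in the same 4 comparisons by 0.32 to 0.46 (adjusted p between 4.73e-04 and 0.00973); in Mix its decrease missed the threshold with library size alone (adjusted p = 0.0876) and in Mix and DEP after the correction for GC content and length (adjusted p = 0.0607 and 0.0504).

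Genes upstream of the pathway and on its side branches were also counted. With TMM 3 of 14 regulators and 2 of 11 isoprenoid genes were higher in DPP than in vehicle, where 16.7% of all genes were higher. These counts lay near the share of all genes. With library size alone 7 and 5 were higher, as were 5820 of all 19465 genes. With that scaling 3 of 5 precursor genes were higher too, and all of them missed the threshold with TMM (adjusted p of at least 0.170 in edgeR for the 5 genes). Of 5 genes that supply acetyl-CoA, ACSS2, the acetyl-CoA synthetase, was higher in DProP than in DEP (0.51 ± 0.09, adjusted p = 0.0322) and than in vehicle (0.45 ± 0.09, adjusted p = 0.00326). Of 14 genes that regulate SREBP or sterol-dependent degradation, SEC24D, a coat component of vesicles leaving the endoplasmic reticulum, rose by 0.24 ± 0.08 in Mix, 0.57 ± 0.08 in DPP and 0.39 ± 0.08 in DProP against vehicle (adjusted p between 1.49e-04 and 0.0447), and SEC23A, its coat partner, fell by 0.23 to 0.39 in the 4 treatments (adjusted p between 0.00166 and 0.0363), which passed the test only in DProP with library size alone. Of 11 genes of the isoprenoid branches, PGGT1B, a prenyltransferase subunit, and COQ2, of ubiquinone synthesis, were higher in DPP (0.48 ± 0.08 and 0.36 ± 0.11) and DProP (0.31 ± 0.08 and 0.40 ± 0.11) than in vehicle, with adjusted p between 8.10e-04 and 0.0266, and PGGT1B was also higher in DEP (0.32 ± 0.08, adjusted p = 0.0151). Of 10 genes of sterol esters and oxysterols, 1 was higher and 1 lower in Mix against vehicle, and 3 and 2 in DPP. In DProP 3 were higher and 1 lower, and in DEP 1 and 2. Over all genes 9.71%, 16.7%, 14.7% and 10.1% were higher and 10.7%, 19.5%, 17.5% and 13.5% lower in the same order. LIPA, the lysosomal acid lipase, rose by 0.37 ± 0.07 in DPP and by 0.25 ± 0.07 in DProP against vehicle (adjusted p = 0.00113 and 0.0138). LIPA was lower in Mix than in DPP and DProP. STARD3 was lower in DPP, DProP and DEP than in vehicle, and SOAT1 in DPP and DEP.

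Markers of cell types moved beside these changes. Of 29 markers (progenitor, neuron, astrocyte, oligodendrocyte lineage, mesenchymal or smooth muscle, and cycling), 14 were lower and 1 higher in Mix, 20 lower in DPP, 20 lower and 1 higher in DProP and 19 lower in DEP against vehicle, where 10.7%, 19.5%, 17.5% and 13.5% of all genes were lower. Between treatments, ELAVL3, a neuronal RNA-binding protein, was the 1 marker called in DProP against DEP (-0.73 ± 0.13, adjusted p = 0.0386 in edgeR). In DPP against DEP 4 were lower and 0 higher. In Mix 8 were higher than in DProP and 3 than in DEP, with 0 lower in both. Against DPP 15 were higher and 1 lower in Mix. Over all genes 0.134% were lower in DProP against DEP and 1.58% in DPP against DEP. The shares higher in Mix were 4.36% against DProP, 2.85% against DEP and 10.4% against DPP. The summed neuron markers were 1567 to 1588 CPM in Mix, 973 to 1083 CPM in DPP, 1127 to 1179 CPM in DProP, 1273 to 1401 CPM in DEP and 1929 to 1999 CPM in vehicle. The progenitor markers summed to 3906 to 4100 CPM in Mix, 4000 to 4185 CPM in DPP, 3795 to 3941 CPM in DProP, 4116 CPM in both DEP libraries and 6476 to 6482 CPM in vehicle. Among the treatments the neuron markers stood in the order Mix, DEP, DProP and DPP, while the pathway sum was highest in DProP and lowest in DEP. The cycling markers, given below, were higher in the DPP and DProP libraries than in those of Mix and DEP.

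The astrocyte markers summed to 3297 to 3616 CPM in Mix, 2885 to 3324 CPM in DPP, 3043 to 3046 CPM in DProP, 3240.05 to 3415 CPM in DEP and 5660 to 5901 CPM in vehicle. The oligodendrocyte lineage markers summed to 602 to 608 CPM in Mix, 430.3 to 496 CPM in DPP, 423 to 455 CPM in DProP, 528 to 574 CPM in DEP and 921 to 923 CPM in vehicle, with SOX10 at 0 in 6 libraries. The mesenchymal or smooth muscle markers summed to 31.0 to 41.4 CPM in Mix, 25.5 to 28.5 CPM in DPP, 28.6 to 31.4 CPM in DProP, 32.3 to 33.4 CPM in DEP and 109 to 116 CPM in vehicle, with COL1A2 at 0 in 2 libraries. The cycling markers summed to 49.0 to 59.1 CPM in Mix, 89.6 to 98.7 CPM in DPP, 75.0 to 196 CPM in DProP, 59.3 to 59.5 CPM in DEP and 59.5 to 62.9 CPM in vehicle, and the DProP libraries differed from each other. The part of these cell type and cycling markers in the pathway's differences was not tested.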

How the data were processed

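RNA from ReNcell VM neurospheres was sequenced with an exome-capture kit in 10 libraries of 5 groups. The deposited file holds raw counts per gene; per the submitters' processing notes, the tools were HISAT2 2.1.0 with GRCh38, Trimmomatic 0.38, FastQC, R 4.3.2 with edgeR 4.0.9, and StringTie 2.1.3b. The counting tool, annotation, strand and multi-mapping settings are not stated in the sources used here. Of the 46427 genes, 17765 had no count in any library.

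Counts were filtered with filterByExpr, scaled with TMM and fitted for all 5 groups in edgeR 4.0.16 (robust quasi-likelihood, R 4.3.3), giving 10 comparisons with Benjamini-Hochberg adjustment within each. Counts of 57222381 to 72973100 per library gave a median 95% interval of 0.17 to each side of a member's log2 fold change. With 2 libraries against 2 an exact permutation test cannot pass 0.05. DESeq2 1.42.0, limma-voom (limma 3.58.1), other scalings and filters, a replicate block and left-out libraries were alternatives. The procedure was tested on simulated data with the design of DProP against vehicle. Unlike the data, the simulation had 1 spread for all genes and few changed genes. The quasi-likelihood test called 50% of 60 genes with a log2 fold change of 0.5 to either side and 100% of 73 genes with 1. Among 18768 genes without a change it called 0.0959%. The members and lists were chosen with earlier results of these data known. All 30 members are named, with every library given for HMGCS1, SQLE, LSS, INSIG1, SREBF2 and the 10 further members with the largest called change, and genes of the other lists were named where called in at least 1 comparison and among the 3 smallest p of their list; MALAT1, TCP1, HSD17B7P2, SOX10 and COL1A2 were named outside this rule after their values were seen. Replicate numbers did not pair libraries: correlations of their deviations lay between -0.0465 and 0.0471.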

Additional observations from a re-analysis of the deposited data

How the results depend on the processing

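Counts of called pathway genes held within 1.5 times under the alternatives, with these exceptions. In Mix against DPP (2 called), library size alone gave 1, no filter 1, a stricter filter 7, DESeq2 8, a replicate block 1 and the correction for GC content and length 9. In DPP against DProP (1 called), the stricter filter gave 3, DESeq2 8, the replicate block 0, the GC and length correction 3, a fit of the groups alone 0 and adjustment over 10 comparisons together, chosen after seeing the data, 9. In Mix against DEP (7 called), the stricter filter gave 11, DESeq2 12, the groups alone 11 and adjustment over 10 comparisons together 11. In Mix against DProP (9 called) the GC and length correction gave 14, and in Mix against vehicle (12 called) the groups alone gave 7. A 2-fold minimum left 0 calls in each of the 10 comparisons. Calls over all genes moved too. DESeq2 called 399 genes in DPP against DProP, 1355 in Mix against DEP and 3838 in Mix against DPP, where edgeR with TMM called 51, 752 and 3359. Adjustment over the 10 comparisons together called 648 in DPP against DProP and 1406 in Mix against DEP. The GC and length correction called 4169 in Mix against DPP and 1770 in Mix against DProP, where edgeR with TMM called 3359 and 1342. SCAP in DProP against vehicle reversed to 0.048 after the GC and length correction. The cause was not tested.

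Leaving out 1 library gave 6 to 8 calls in Mix, 12 to 14 in DPP, 16 to 18 in DProP and 4 to 8 in DEP against vehicle. It gave 2 to 15 in DProP against DEP, 0 to 6 in DPP against DEP, 0 to 2 in DPP against DProP, 0 to 2 in Mix against DEP, 4 to 7 in Mix against DProP and 0 to 4 in Mix against DPP. A lone library is assumed there to vary like the other groups. Calls over all genes fell too in most of these fits. With the replicate block 16 genes were called in DProP against DEP, and 11 of 101 single calls were lost. The lowest count of these genes was 610, so none was near 0. Simulated log2 fold changes of 0.5 were called in 50% of genes, so members that were not called may still differ.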
